A study of Mus musculus with 42 samples.

Results

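Spleen cells other than B and T cells, called non-BT cells in the labels, were compared between young mice homozygous for Psmb8 G201V/G201V and young Psmb8 +/+ (wild-type) mice by RNA sequencing. All libraries whose titles hold the words for young, non-BT cell and 1 of these genotypes were taken, which were 4 homozygous and 4 wild-type libraries of the 42 in the series. The other libraries were B and T cells of the same 8 young animals, as their titles number them, and B, T and non-BT cells of 6 old animals. No animal was treated, every group came from spleen, and strain, sex, age in weeks and the method of separation were not given in the sources used here. Wild-type library 4 carries a Psmb9 +/+ genotype label and was placed by its title, and results are also given with that library left out. The labels do not say whether the G201V line rests on 1 founder, and p-values measure the spread between these libraries.

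Psmb8 encodes the beta5i subunit, which replaces a catalytic subunit of the standard 20S core to form the immunoproteasome of immune cells. The proteasome cuts ubiquitin-tagged proteins, and the immunoproteasome makes peptides for MHC class I. What is left of a spleen without B and T cells is a mixture of natural killer (NK) cells, neutrophils, monocytes, macrophages, dendritic cells and erythroid cells. Among the dendritic cells, plasmacytoid dendritic cells (pDC) are known as the main makers of type I interferon and depend on the transcription factor Tcf4, while conventional dendritic cells present antigen to T cells.

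The defining markers were checked first, in FPKM (fragments per kilobase of transcript scaled to library depth). In wild-type non-BT libraries Cd79a stood at 5.61 to 15.1 and Cd3e at 3.17 to 14.02 FPKM, against 1668 to 2129 (Cd79a) in B cells and 285 to 320 (Cd3e) in T cells. Ncr1 of NK cells (151 to 187 FPKM), Csf1r of monocytes (338 to 442), Elane of early neutrophils (76.1 to 153), Itgax of dendritic cells (99.96 to 111) and Siglech of pDC (154 to 173) were all present. Among red pulp macrophage markers Vcam1 (13.7 to 21.6 FPKM), Spic (17.1 to 24.97) and C1qa (7.81 to 11.4) were lower than in the B cell fraction (121 to 150, 38.9 to 50.2 and 54.6 to 88.6), while Adgre1 was higher (85.2 to 97.3 against 30.9 to 40.7). The T cell fraction in turn held NK and pDC transcripts (Ncr1 39.2 to 71.8 and Siglech 20.5 to 29.2 FPKM). All 8 young non-BT libraries had Xist at 0 and Ddx3y at 28.2 to 39.8 FPKM, as in males. Estimated depth was 12780000 to 20290000 fragments in wild-type and 17220000 to 22870000 in homozygous libraries. Correlation across genes was 0.962 to 0.973 within a genotype (12 pairs of libraries) and 0.943 to 0.964 between genotypes (16 pairs).

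The level of Psmb8 itself was not called different. Psmb8 stood at 525, 551, 650.3 and 628 FPKM in wild-type libraries 1 to 4 and at 540.0, 672, 595 and 689 FPKM in homozygous libraries 1 to 4. The ranges overlapped, with a log2 fold change of 0.08 ± 0.12 (SE, limma adjusted p = 0.822). FPKM does not show the base change, so this level does not check the genotype labels. The other immunoproteasome subunits, Psmb9 (-0.18 ± 0.18, adjusted p = 0.713) and Psmb10 (0.18 ± 0.11, adjusted p = 0.518), also overlapped between genotypes.

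Of 13587 genes tested (at least 1 FPKM in at least 3 of 14 non-BT libraries), 229 passed an adjusted p of 0.05 (1.69%), 31 higher and 198 lower in homozygous cells. All folds are homozygous minus wild type on the log2(FPKM + 1) scale, which understates changes of low genes. The falls were larger than the rises: the median log2 fold change was -1.27 over the 198 and 0.53 over the 31, and -0.02 over all genes tested. The shares to set beside each list are 0.228% of all genes tested called higher and 1.46% called lower. Called or not, 52.5% had a negative sign. Counts of list members at an unadjusted p under 0.05 are given below without the share over all genes. They do not show whether a list exceeds that share. In 227 of the 229 the genotypes did not overlap, as did 12.8% of all genes tested. Quantile normalization gave 47 higher and 139 lower calls, and division by each library's median gave 67 and 152. The spread was estimated over young and old non-BT libraries together. With young libraries alone 681 genes passed (5.01%, 164 higher and 517 lower), and 228 of the 229 were among them. Leaving out 1 young library gave 60 to 137 calls (67 without wild-type library 4), and 51 of the 229 held in all 8 such fits, 49 lower and 2 higher. Animals 1 and 2 differ from animals 3 and 4 in the series of their library names, and all 229 had the same direction in both sets. For the 227 without overlap this was fixed in advance and is no replication.

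**Figure D1:**
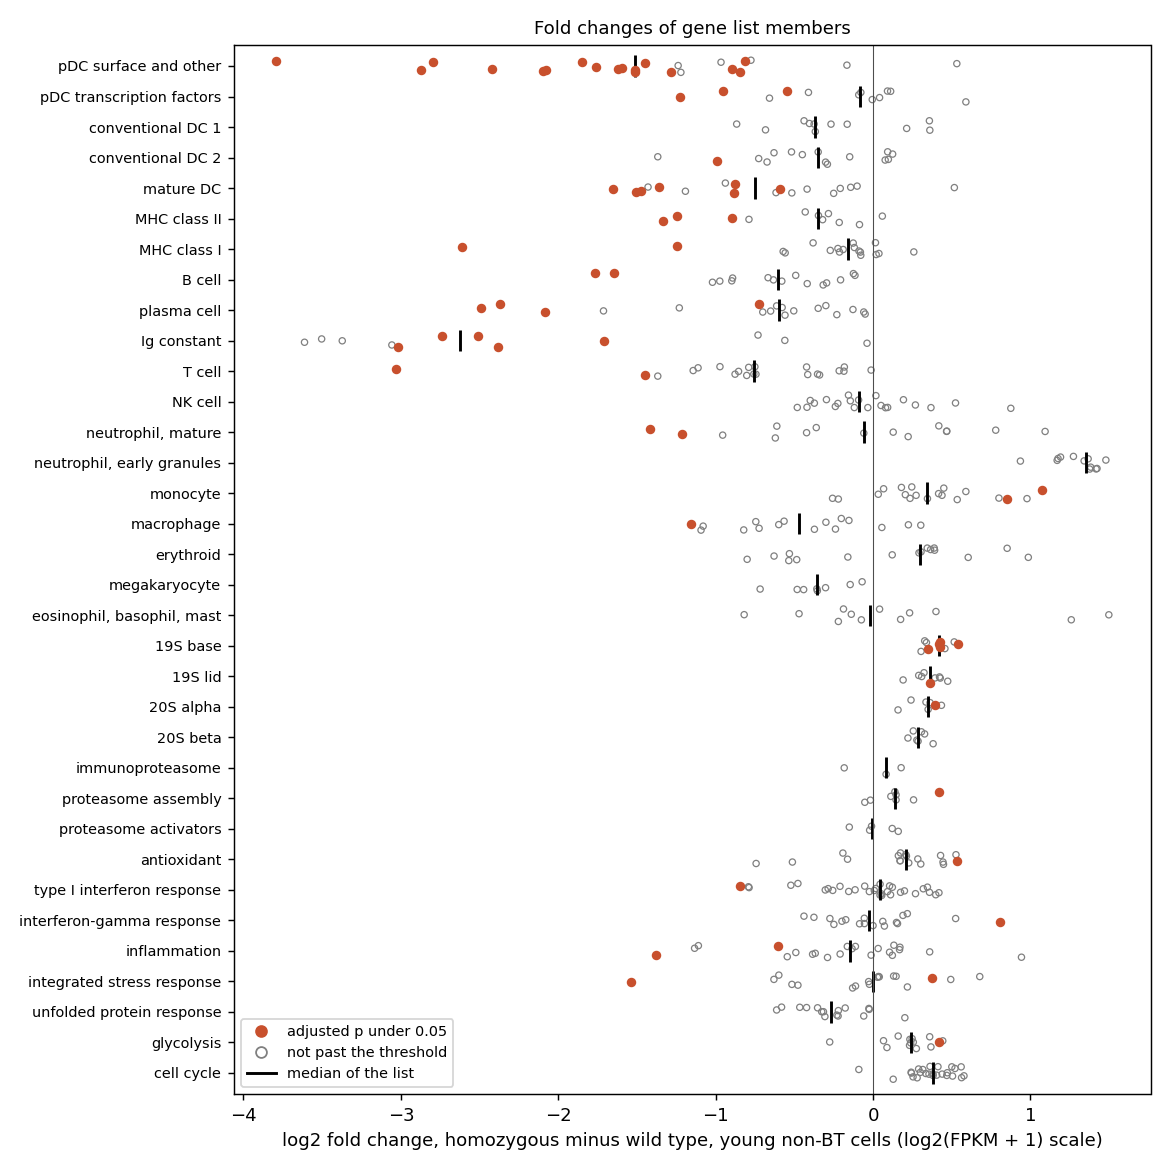
Log2 fold changes (horizontal axis, homozygous minus wild type, log2(FPKM + 1) scale) of the genes of 34 lists, 1 row a list and 1 point a gene; filled points passed the limma threshold and bars mark each list's median. The pDC row reaches from -3.80 to 0.53 with its median at -1.51, and the 19S and 20S rows lie to the right of 0.

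Genes of plasmacytoid dendritic cells were lower. Of 23 pDC surface and effector genes, all of them tested, 17 fell and none rose (1.46% of all genes tested fell), and 22 had a negative sign. In 20 of the 23 every homozygous library lay below every wild-type one, as in 7.91% of all genes tested. Their median log2 fold change was -1.51, against -0.02 over all genes. The summed level of the 23 genes was 1904 to 2062 FPKM in wild-type and 1102 to 1609 FPKM in homozygous libraries, and no member was at 0 in a whole group. In such bulk samples fewer cells of a type and less RNA per cell cannot be told apart.

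Siglech encodes a sialic acid-binding receptor by which mouse pDC are recognised. Siglech stood at 157, 173, 154 and 163 FPKM in wild-type libraries 1 to 4 and at 29.5, 32.5, 42.03 and 48.5 FPKM in homozygous libraries 1 to 4. The groups lay far apart, with a log2 fold change of -2.08 ± 0.32 (SE, limma adjusted p = 0.00854). Ccr9, the receptor for the gut and thymus chemokine Ccl25, showed the same split. Ccr9 stood at 26.3, 25.9, 28.4 and 29.6 FPKM in wild-type libraries 1 to 4 and at 2.78, 4.42, 5.099 and 5.404 FPKM in homozygous libraries 1 to 4. Its log2 fold change was -2.42 ± 0.38 (adjusted p = 0.00889). Klk1, the secreted protease tissue kallikrein, had the largest fall among the named genes. Klk1 stood at 50.4, 53.5, 46.00 and 49.7 FPKM in wild-type libraries 1 to 4 and at 1.44, 2.24, 4.81 and 2.91 FPKM in homozygous libraries 1 to 4. No homozygous library came near a wild-type value, at -3.796 ± 0.54 (adjusted p = 0.00812). Klk1 has near-identical neighbours, and its neighbour Klk1b27 fell too (10.2 to 13.1 against 0.459 to 1.797 FPKM, -2.72 ± 0.39, adjusted p = 0.00812); how reads were divided between them is not given in the sources used here.

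The promoters of these 3 genes are shown as examples that hold an E-box, the motif bound by E proteins such as Tcf4. All 3 are among the 8 genes with this motif of the 14 matched below, and genes without it are not shown. Whether Tcf4 acts on these genes was not tested. The sequences are from RefSeq on GRCm38.p6, 250 bases before to 50 after the annotated start, with the E-box CACCTG, or CAGGTG where it lies on the other strand, in capitals.
Siglech, chr7:55767934-55768233, + strand: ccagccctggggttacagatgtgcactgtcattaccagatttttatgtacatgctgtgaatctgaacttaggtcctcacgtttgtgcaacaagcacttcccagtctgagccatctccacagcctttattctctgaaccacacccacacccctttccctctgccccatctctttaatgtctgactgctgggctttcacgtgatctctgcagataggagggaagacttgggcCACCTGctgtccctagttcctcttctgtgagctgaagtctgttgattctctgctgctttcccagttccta
Klk1, chr7:44225110-44225409, + strand: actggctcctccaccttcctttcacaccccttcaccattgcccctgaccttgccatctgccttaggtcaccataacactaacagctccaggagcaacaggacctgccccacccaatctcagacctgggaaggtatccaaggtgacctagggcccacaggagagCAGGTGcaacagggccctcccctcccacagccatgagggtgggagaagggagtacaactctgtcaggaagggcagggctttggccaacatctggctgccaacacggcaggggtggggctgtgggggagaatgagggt
Ccr9, chr9:123766961-123767260, + strand: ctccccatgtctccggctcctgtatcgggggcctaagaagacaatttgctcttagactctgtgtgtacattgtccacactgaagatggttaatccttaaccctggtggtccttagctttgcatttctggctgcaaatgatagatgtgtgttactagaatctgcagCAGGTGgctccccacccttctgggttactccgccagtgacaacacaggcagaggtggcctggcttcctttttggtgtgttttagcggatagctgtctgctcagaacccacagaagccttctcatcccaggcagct
Of the 17 pDC genes that fell, 14 matched an entry, with 19 promoter windows. CACCTG on either strand was in 8 of the 19 windows, and in 20.2% of the 32851 windows of all genes. A match is a description of letters and not a measured binding site.

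The other pDC genes that passed fell by 0.81 to 2.87 on the log2 scale. Ly6d, a small membrane-anchored protein also carried by B-lineage cells, fell from a range of 360.1 to 429.5 FPKM to one of 47.00 to 64.4 (-2.79 ± 0.33, limma adjusted p = 0.00238). Cox6a2, a subunit of mitochondrial cytochrome c oxidase best known from muscle, fell from a range of 52.9 to 61.2 FPKM to one of 5.55 to 8.96 (-2.87 ± 0.39). The small membrane protein gene Smim5 stood at 98.8, 95.5, 97.2 and 87.1 FPKM in wild type and 34.9, 33.8, 36.7 and 30.7 in homozygous libraries. Its log2 fold change of -1.45 ± 0.13 had an adjusted p of 0.000432. Pacsin1, a membrane-bending adaptor, fell by 2.097, the lectin receptor Klra17 by 1.51 and Rpgrip1 by 1.76. The remaining falls were -1.85 for Paqr5, -1.62 for Dntt (the terminal transferase of lymphoid progenitors), -1.596 for Havcr1, -1.51 for Cd300c, -1.28 for Upb1, -0.89 for Atp1b1, -0.85 for Bst2 and -0.81 for P2ry14. Siglech, Ccr9, Klk1, Ly6d, Cox6a2, Smim5, Pacsin1, Klra17 and Rpgrip1 stayed below the threshold whichever of the 8 libraries was left out (adjusted p up to 0.0395). Havcr1, Cd300c, Atp1b1 and P2ry14 lost the call on removal of any 1 library (adjusted p up to 0.142). Paqr5 and Dntt kept it only on removal of homozygous library 1 (otherwise up to 0.115). Upb1 and Bst2 kept it only on removal of homozygous library 4 (otherwise up to 0.122).

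Of 12 transcription factors of pDC and dendritic cell fate, Tcf4, Spib and Irf8 fell and none rose, with a list median of -0.08. Among all genes tested 1.46% fell. Of the 12, 5 lay fully below wild type and 1 fully above, as did 7.91% and 4.87% of all genes tested. Tcf4 is required for pDC development in mice. Tcf4 stood at 55.9, 57.6, 54.9 and 53.6 FPKM in wild-type libraries 1 to 4 and at 24.8, 25.2, 30.4 and 33.3 FPKM in homozygous libraries 1 to 4. The fall was -0.95 ± 0.13 (limma adjusted p = 0.00637), a smaller fold than that of Siglech. Spib, an Ets factor of pDC and B cells, went from a range of 45.9 to 60.6 FPKM to one of 18.8 to 27.2 (-1.23 ± 0.23, adjusted p = 0.0182), and Irf8 from a range of 313 to 349.9 FPKM to one of 189 to 262 (-0.55 ± 0.13, adjusted p = 0.04701). Runx2 (12.4 to 16.8 and 8.57 to 9.39 FPKM) and Bcl11a (27.5 to 29.5 and 19.4 to 23.1) did not overlap between genotypes but missed the threshold (adjusted p of 0.161 and 0.0664). The interferon regulator Irf7 stood at 184 to 239 and 183 to 257 FPKM, and Id2, a factor that opposes E proteins, at 415 to 497 and 378 to 509.6. Tcf4 stayed below the threshold whichever of the 8 libraries was left out (adjusted p up to 0.0286). Irf8 lost the call on removal of any 1 library (adjusted p up to 0.132). Spib kept it only on removal of wild-type library 2 and of homozygous library 4 (otherwise up to 0.0722).

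None of the 15 nucleic acid sensing genes tested passed by limma (2 at an unadjusted p under 0.05; median -0.06). Tlr7, which senses single-stranded RNA, stood at 37.5 to 50.9 and 36.9 to 65.8 FPKM, and Tlr9 was too low to be tested. Of 11 interferon ligand and receptor genes only 3 were expressed enough to be tested, and none of them passed (1 at an unadjusted p under 0.05).

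**Figure D2:**
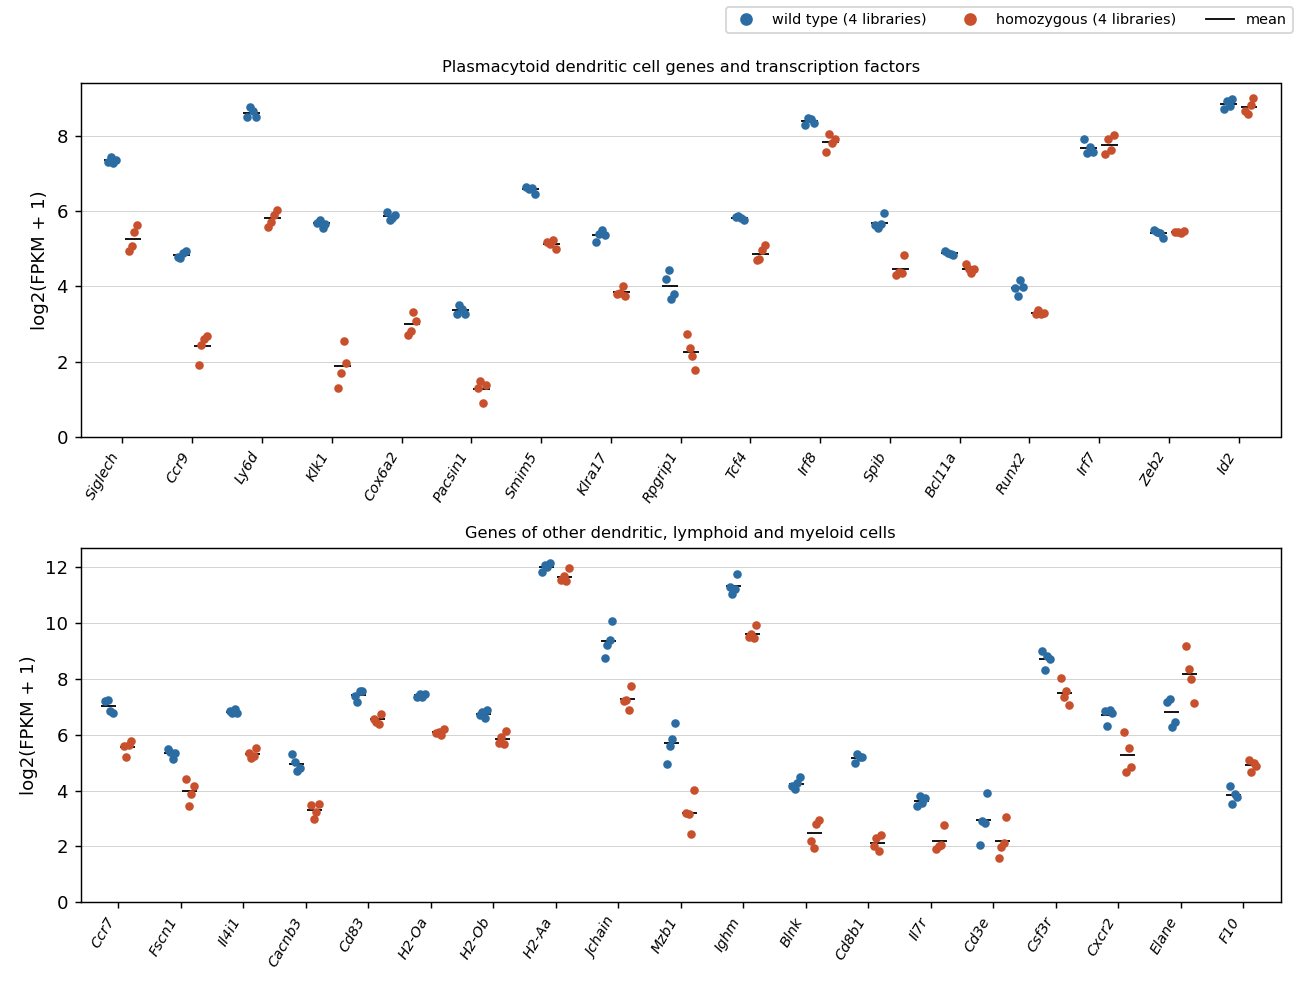
Level of each gene in each library (vertical axis, log2(FPKM + 1)) for pDC genes and factors (upper panel) and for genes of other cells (lower panel); points are libraries, blue wild type and red homozygous, and bars are means. Siglech to Spib separate fully between the genotypes, while Irf7, Zeb2, Id2 and Cd3e overlap.

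Mature dendritic cells are in a state in which they migrate and activate T cells. Of 18 genes of these cells 7 fell and none rose, 17 had a negative sign, and the list median was -0.75. Among all genes tested 1.46% fell and 52.5% had a negative sign. Ccr7, the receptor that guides dendritic cells to lymph nodes, is the best known. Ccr7 stood at 147, 149, 114 and 108 FPKM in wild-type libraries 1 to 4 and at 46.9, 35.5, 48.8 and 53.2 FPKM in homozygous libraries 1 to 4. The genotypes did not overlap (-1.47 ± 0.27, limma adjusted p = 0.0178). Il4i1, a secreted amino acid oxidase, fell from a range of 107 to 119.5 FPKM to one of 34.8 to 45.5 (-1.51 ± 0.26, adjusted p = 0.0134). Cacnb3, a calcium channel subunit, fell by 1.65, the actin bundler Fscn1 by 1.36, Tmem123 by 0.88, the maturation marker Cd83 by 0.88 and Marcksl1 by 0.59. H2-M2, a non-classical MHC class I gene, fell as well (60.2 to 79.5 against 6.92 to 17.03 FPKM, -2.61 ± 0.31, adjusted p = 0.00238). Cacnb3, Tmem123 and H2-M2 stayed below the threshold whichever of the 8 libraries was left out (adjusted p up to 0.0407). Marcksl1 kept the call only on removal of homozygous library 1 (otherwise up to 0.0899). Cd83 kept it only on removal of wild-type library 2 and of homozygous library 4 (otherwise up to 0.0854). Fscn1 kept it only on removal of wild-type library 3 and of homozygous libraries 1 and 4 (otherwise up to 0.0641). Ccr7 lost it on removal of wild-type libraries 1 and 2 and of homozygous libraries 2 and 3 (up to 0.0644). Il4i1 lost it on removal of homozygous libraries 2 and 3 (up to 0.0541).

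Few genes of conventional dendritic cell subsets passed. Of 11 genes of the type 1 subset none passed by limma (5 at an unadjusted p under 0.05; median -0.37). Its chemokine receptor Xcr1 stood at 4.100 to 8.98 and 3.14 to 6.49 FPKM. Clec9a, its receptor for dead cells, stood at 10.1 to 14.8 and 5.56 to 9.34, below every wild-type library but short of the threshold (adjusted p = 0.172). Of 15 genes of the type 2 subset only Esam, an adhesion molecule, fell (23.96 to 26.98 against 8.66 to 17.2 FPKM, -0.99 ± 0.22, limma adjusted p = 0.03900), with a list median of -0.35. A negative sign was seen in 8 of the 11 type 1 and 11 of the 15 type 2 genes. Every homozygous library lay below every wild-type one in 2 and 5 of them. Among all genes tested 1.46% fell, 52.5% had a negative sign and 7.91% lay fully below. Among 11 MHC class II genes, the H2-O chains H2-Oa (-1.33 ± 0.26, adjusted p = 0.0238) and H2-Ob (-0.89 ± 0.19, adjusted p = 0.0388), which restrain peptide loading, fell together with H2-Eb2 (-1.25 ± 0.28, adjusted p = 0.0413). H2-Oa stood at 164, 175, 164 and 174 FPKM in wild-type libraries 1 to 4 and at 65.5, 66.5, 62.3 and 72.4 FPKM in homozygous libraries 1 to 4. The groups were far apart. The abundant presenting chain H2-Aa overlapped, at 3596 to 4489 and 2896 to 3938 FPKM. Of 18 MHC class I genes, H2-Q4 fell besides H2-M2 (7.48 to 9.07 against 2.52 to 3.697 FPKM, -1.25 ± 0.18); H2-Q genes are near-identical copies. H2-Q4 stayed below the threshold whichever of the 8 libraries was left out (adjusted p up to 0.0334). H2-Eb2 lost the call on removal of any 1 library (adjusted p up to 0.136). Esam, H2-Oa and H2-Ob kept it only on removal of homozygous library 4 (otherwise up to 0.113).

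Immunoglobulin transcripts took a smaller share of homozygous libraries. Immunoglobulin genes took 4.22, 5.36, 5.40 and 9.54% of summed FPKM in wild-type libraries 1 to 4 and 1.04, 1.12, 1.09 and 1.42% in homozygous ones. The ranges did not overlap, and the means of 6.13% and 1.17% differed with p = 0.0286 (two-sided exact permutation test, the smallest p that 4 against 4 can give). Of 234 immunoglobulin genes tested 26 fell and none rose, and 222 had a negative sign. The shares over all genes tested were 1.46% that fell and 52.5% with a negative sign. The 12 constant genes of the list had a median of -2.62, and Ighm, Igkc, Iglc1, Iglc2 and Iglc3 fell. Ighm, the mu heavy chain, stood at 2101 to 3430.4 FPKM in wild-type and 705 to 957 in homozygous libraries (-1.71 ± 0.29, limma adjusted p = 0.0134). Iglc3, a lambda light chain, stood at 451 to 689 and 72.3 to 126 (-2.51 ± 0.35, adjusted p = 0.00765). Igkc fell by 2.38, Iglc1 by 2.74 and Iglc2 by 3.02, and how reads were divided among the lambda copies is uncertain. Iglc3 stayed below the threshold whichever of the 8 libraries was left out (adjusted p up to 0.0334). Igkc kept the call only on removal of wild-type library 1 and of homozygous library 4 (otherwise up to 0.09700). Iglc2 kept it only on removal of wild-type library 2 and of homozygous library 4 (otherwise up to 0.0722). Iglc1 lost it on removal of wild-type libraries 2 and 3 and of homozygous libraries 3 and 4 (up to 0.0619). Ighm lost it on removal of wild-type library 4 and of homozygous library 3 (up to 0.0541).

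Jchain, which joins IgM and IgA into polymers, fell as well. Jchain stood at 432, 584, 673 and 1059 FPKM in wild-type libraries 1 to 4 and at 145, 150.2, 117 and 214 FPKM in homozygous libraries 1 to 4. Wild-type library 4 was the highest, and all homozygous libraries lay below all wild-type ones (-2.08 ± 0.32, limma adjusted p = 0.00854). Of 18 plasma cell genes Jchain, Mzb1, Derl3 and Tnfrsf13b fell. All 18 had a negative sign (median -0.60), or 17 with quantile normalization and 16 with median scaling. Among all genes tested 1.46% fell and 52.5% had a negative sign. Mzb1, a chaperone of antibody assembly, went from a range of 29.8 to 84.6 FPKM to one of 4.45 to 15.3 (-2.49 ± 0.50), Derl3 of protein disposal from a range of 5.63 to 12.2 FPKM to one of 0.325 to 0.852 (-2.37 ± 0.43), and the receptor Tnfrsf13b from a range of 49.05 to 56.4 FPKM to one of 29.1 to 33.5 (-0.72 ± 0.16). The plasma cell regulators Prdm1 (6.71 to 10.6 and 7.77 to 8.56 FPKM) and Xbp1 (283 to 308 and 266 to 302) overlapped between genotypes. Of 16 B cell genes Blnk, an adaptor of B cell receptor signalling, and Fcrla fell, and all 16 had a negative sign (median -0.61), or 15 with quantile normalization. Blnk went from a range of 15.6 to 21.2 FPKM to one of 2.87 to 6.79 (-1.77 ± 0.40, adjusted p = 0.0429) and Fcrla from a range of 16.7 to 19.4 FPKM to one of 4.02 to 7.21 (-1.65 ± 0.32, adjusted p = 0.0241). The summed level of the 18 listed B cell genes was 200 to 253 FPKM in wild-type and 115 to 150.1 in homozygous non-BT libraries, against 9742 to 10990 in wild-type B cells; its part in these results was not tested. Jchain stayed below the threshold whichever of the 8 libraries was left out (adjusted p up to 0.03399). Tnfrsf13b and Blnk lost the call on removal of any 1 library (adjusted p up to 0.142). Fcrla kept it only on removal of homozygous library 4 (otherwise up to 0.0847). Mzb1 kept it only on removal of wild-type library 1 and of homozygous library 4 (otherwise up to 0.09495). Derl3 lost it on removal of wild-type libraries 1 and 4 and of homozygous libraries 2 and 3 (up to 0.0666).

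T cell genes were low, and Cd8b1 and Il7r fell. Cd8b1 encodes the CD8 beta chain of cytotoxic T cells. Cd8b1 stood at 30.5, 38.3, 36.1 and 35.6 FPKM in wild-type libraries 1 to 4 and at 3.06, 3.900, 2.55 and 4.35 FPKM in homozygous libraries 1 to 4. The fall was -3.03 ± 0.45 (limma adjusted p = 0.00831). Cd8a, its partner chain, overlapped, at 20.2 to 32.8 and 10.4 to 20.3 FPKM (adjusted p = 0.0773), as did Cd3e at 3.17 to 14.02 and 1.98 to 7.29 and Cd3d at 3.49 to 14.4 and 4.07 to 4.83. Il7r, the interleukin 7 receptor, fell from a range of 9.87 to 13.1 FPKM to one of 2.79 to 5.74 (-1.45 ± 0.24, adjusted p = 0.0122). Of 21 T cell genes these were the only calls. All 21 had a negative sign (median -0.76), or 20 with quantile normalization or median scaling. Among all genes tested 1.46% fell and 52.5% had a negative sign. None of 66 T cell receptor genes passed (2 at an unadjusted p under 0.05). The summed level of the 22 listed T cell genes was 652 to 835 FPKM in wild-type and 406 to 596 in homozygous libraries, and its part in the 2 calls was not tested. Cd8b1 and Il7r stayed below the threshold whichever of the 8 libraries was left out (adjusted p up to 0.0498). None of 21 NK cell genes passed by limma (2 at an unadjusted p under 0.05; median -0.09), among them Ncr1 (151 to 187 and 114 to 189 FPKM) and Gzma (839 to 1209.9 and 906 to 1462).

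Among neutrophil genes 2 receptor genes fell. Csf3r, the receptor for the neutrophil growth factor G-CSF, fell. Csf3r stood at 502, 319.8, 450.2 and 417 FPKM in wild-type libraries 1 to 4 and at 258, 159.9, 186 and 134 FPKM in homozygous libraries 1 to 4. The genotypes did not overlap (-1.21 ± 0.21, limma adjusted p = 0.0134). Cxcr2, the chemokine receptor of mature neutrophils, fell from a range of 79.02 to 117 FPKM to one of 24.6 to 67.3 (-1.42 ± 0.30, adjusted p = 0.0334). These were the only calls among 15 genes of mature neutrophils, of which 7 had a positive and 8 a negative sign (median -0.06, and 0.01 with median scaling). Among all genes tested 1.46% fell. The mature neutrophil marker Ly6g stood at 15.7 to 31.5 and 27.96 to 102 FPKM and was not called (1.09 ± 0.56, adjusted p = 0.418). All 12 genes of early neutrophil granules had a positive sign, with a median of 1.35, but none passed by limma (11 at an unadjusted p under 0.05). Elane stood at 143, 153, 76.1 and 87.4 FPKM in wild-type libraries 1 to 4 and at 576, 323, 255 and 139 FPKM in homozygous libraries 1 to 4. Homozygous library 1 was the highest and library 4 lay within the wild-type range (1.37 ± 0.49, adjusted p = 0.215). The summed level of the 12 granule genes was 2370 to 4807 FPKM in wild-type and 4104 to 17914 FPKM in homozygous libraries. Cxcr2 kept the call only on removal of homozygous library 1 (otherwise up to 0.101). Csf3r lost it on removal of homozygous library 2 (up to 0.0542).

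Among 19 monocyte genes, 2 rose, F10 among them, and none fell (0.228% of all genes tested rose), with 17 positive signs and a median of 0.35. F10 encodes coagulation factor X. F10 stood at 16.7, 10.5, 13.5 and 12.7 FPKM in wild-type libraries 1 to 4 and at 33.1, 24.2, 30.6 and 28.3 FPKM in homozygous libraries 1 to 4. The groups did not overlap (1.07 ± 0.22, limma adjusted p = 0.0304). Csf1r (338 to 442 and 473 to 506 FPKM) did not overlap but was not called, and Ly6c2 of classical monocytes stood at 447 to 487 and 452 to 512. Of 16 macrophage genes only the iron exporter Slc40a1 fell (91.5 to 149.6 against 41.6 to 85.5 FPKM, -1.16 ± 0.22, adjusted p = 0.0225), with a median of -0.47. None of 16 erythroid, 8 megakaryocyte or 12 eosinophil, basophil and mast cell genes passed by limma (0, 0 and 5 at an unadjusted p under 0.05). F10 kept the call only on removal of wild-type library 1 (otherwise up to 0.0949). Slc40a1 kept it only on removal of wild-type library 2 and of homozygous library 1 (otherwise up to 0.0826).

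Of 36 proteasome subunit genes tested 7 rose, by 0.35 to 0.54 on the log2 scale, none fell and 29 did not pass. The share of all genes tested that rose was 0.228%. A positive sign was seen in 35 of the 36, and in 6457 of all 13587 genes tested. Of the 10 genes of the 19S base, which unfolds substrates and feeds them into the core, Psmc1, Psmc2, Psmc5, Psmd2 and Adrm1 rose. All 10 had every homozygous library above every wild-type one, as had 4.87% of all genes tested, and their median log2 fold change was 0.42. Psmc2 encodes an ATPase of the base. Psmc2 stood at 62.8, 67.5, 68.6 and 67.3 FPKM in wild-type libraries 1 to 4 and at 93.5, 96.4, 93.6 and 106 FPKM in homozygous libraries 1 to 4. The ranges were narrow and apart (0.54 ± 0.09, limma adjusted p = 0.0135). Adrm1, a ubiquitin receptor, stood at 63.7 to 72.5 and 87.4 to 93.2 FPKM (0.42 ± 0.09, adjusted p = 0.0424). Psmc5 rose by 0.42, Psmc1 by 0.42 and Psmd2 by 0.35.

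Of 9 lid genes tested, which hold the deubiquitinase, Psmd13 rose (0.36 ± 0.08, limma adjusted p = 0.0413), with all 9 positive and a median of 0.36. Of 7 alpha ring genes of the 20S core Psma7 rose (0.39 ± 0.09, adjusted p = 0.03900), with a median of 0.35, and of 7 standard beta genes none passed (6 at an unadjusted p under 0.05), with a median of 0.29. The core assembly factor Pomp rose from a range of 322 to 376 FPKM to one of 447 to 514 (0.42 ± 0.08, adjusted p = 0.0178), alone among 8 assembly genes. The activators Psme1 (-0.15) and Psme2 (-0.01, and 0.06 with median scaling), inducible by interferon gamma, were not called, nor was Nfe2l1 (42.5 to 57.1 and 36.3 to 43.1 FPKM), whose product drives proteasome genes when proteasomes are inhibited. Psmc2 stayed below the threshold whichever of the 8 libraries was left out (adjusted p up to 0.0475). Psmc1, Psmc5, Psmd2 and Adrm1 lost the call on removal of any 1 library (adjusted p up to 0.146). Psmd13 and Psma7 kept it only on removal of wild-type library 3 (otherwise up to 0.134). Pomp lost it on removal of wild-type library 1 and of homozygous libraries 2, 3 and 4 (up to 0.0669). With each library scaled to its total without immunoglobulin genes, none of these 8 rises passed. The log2 fold change of Psmc2 was then 0.47 (adjusted p = 0.2495), and the immunoglobulin share was 9.54 to 44.2% in the old libraries that share the spread.

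The promoter of Adrm1 is shown because, of the 8 proteasome genes that rose, it was the only one whose RefSeq window held the core of the antioxidant response element, TGACNNNGC on either strand, here in capitals (GRCm38.p6).
Adrm1, chr2:180171338-180171637, + strand: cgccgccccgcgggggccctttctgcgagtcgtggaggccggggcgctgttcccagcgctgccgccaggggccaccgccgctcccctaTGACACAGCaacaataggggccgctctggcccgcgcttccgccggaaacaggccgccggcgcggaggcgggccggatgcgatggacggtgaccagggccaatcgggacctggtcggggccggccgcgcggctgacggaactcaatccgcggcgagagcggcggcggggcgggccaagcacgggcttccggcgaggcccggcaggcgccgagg
This motif was in 12.4% of all windows, and 1 of the 9 windows of the 8 genes held it.

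**Figure D3:**
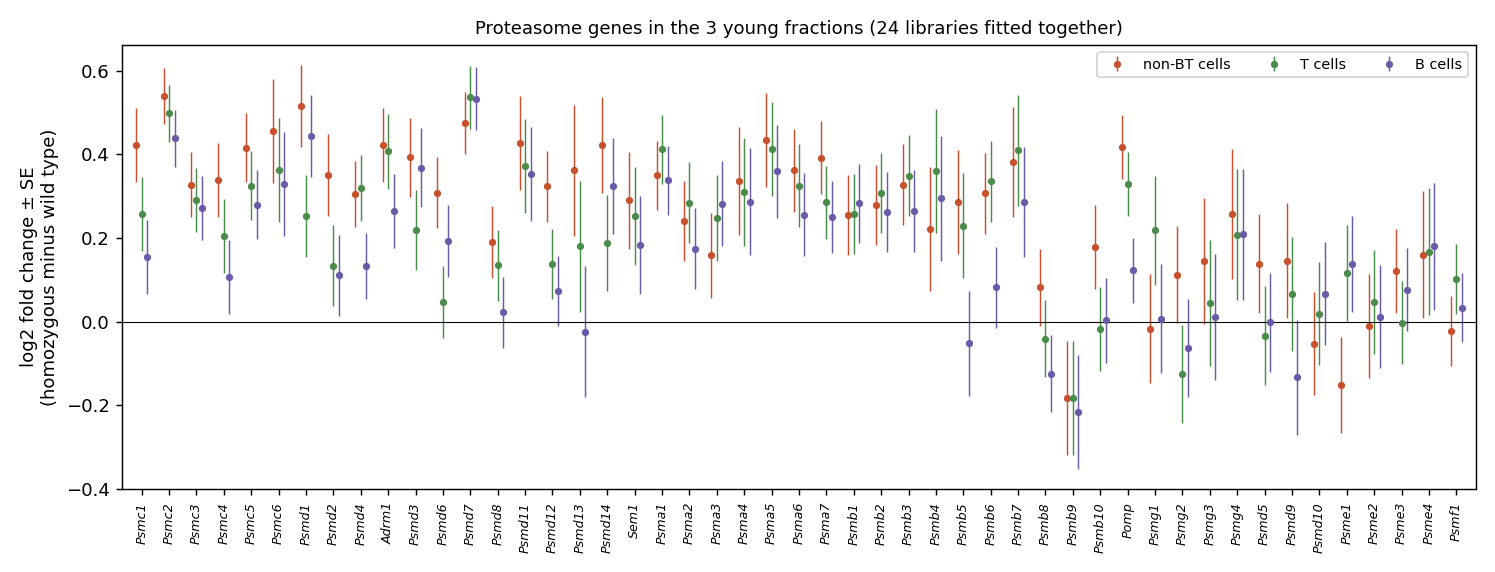
Log2 fold change with SE (vertical axis, homozygous minus wild type) of each proteasome gene in young non-BT, T and B cells, from 1 fit of 24 libraries. Most 19S and 20S subunits lie above 0 in all 3 fractions, and Psmb8, Psmb9 and the activators lie near 0.

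Few interferon response genes passed the test. Of 31 type I interferon response genes only Bst2, which is also a pDC gene, passed, and it fell (157 to 178 against 69.9 to 115 FPKM, -0.85 ± 0.19, limma adjusted p = 0.0394). The list median was 0.04. Isg15 stood at 23.99 to 30.1 and 21.7 to 28.6 FPKM, Ifit1 at 8.93 to 12.9 and 7.001 to 11.7, and Mx1 at 8.12 to 10.004 and 7.21 to 11.6. Of 18 genes induced by interferon gamma, the GTPase gene Gbp3 rose (median of the list -0.03). Gbp3 stood at 21.7, 20.8, 23.1 and 23.7 FPKM in wild-type libraries 1 to 4 and at 25.6, 55.3, 38.1 and 45.97 FPKM in homozygous libraries 1 to 4. Homozygous library 1 lay just above the wild-type range (0.81 ± 0.19, adjusted p = 0.04898). Cxcl10 overlapped (10.2 to 18.3 and 7.83 to 24.4 FPKM). Bst2 kept the call only on removal of homozygous library 4 (otherwise up to 0.119). Gbp3 kept it only on removal of homozygous library 1 (otherwise up to 0.144).

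Of 22 inflammation genes Il1b and its antagonist Il1rn fell and none rose. Among all genes tested 1.46% fell and 0.228% rose. Il1b stood at 500.0, 383, 519 and 582 FPKM in wild-type libraries 1 to 4 and at 286, 149, 190.3 and 154 FPKM in homozygous libraries 1 to 4. The genotypes did not overlap (-1.38 ± 0.29, limma adjusted p = 0.0329). Il1rn went from a range of 70.8 to 81.1 FPKM to one of 39.5 to 56.4 (-0.61 ± 0.13, adjusted p = 0.0367), while Tnf overlapped (4.56 to 7.08 and 2.31 to 5.54). Ripk3, the kinase of necroptosis, was the 1 call among 15 cell death genes (19.2 to 28.3 against 28.7 to 36.3 FPKM, 0.53 ± 0.12, adjusted p = 0.03901). Of 18 integrated stress response genes Chac1, a glutathione-degrading enzyme, fell (-1.54 ± 0.27, adjusted p = 0.0146) and the glycyl-tRNA synthetase Gars rose (0.37 ± 0.08, adjusted p = 0.03498). Prdx1, a peroxidase that removes hydrogen peroxide, rose alone among 18 antioxidant genes (352 to 427 against 499.7 to 627 FPKM, 0.53 ± 0.11, adjusted p = 0.0271). The glycolytic enzyme Eno1 rose alone among 14 (0.42 ± 0.09, adjusted p = 0.0413). None of 16 unfolded protein response genes, 11 heat shock genes or 25 cell cycle genes passed by limma (2, 0 and 0 at an unadjusted p under 0.05), and their medians were -0.27, -0.07 and 0.38. Il1rn, Gars and Eno1 lost the call on removal of any 1 library (adjusted p up to 0.134). Il1b and Prdx1 kept it only on removal of homozygous library 1 (otherwise up to 0.104). Ripk3 kept it only on removal of wild-type library 3 and of homozygous library 1 (otherwise up to 0.128). Chac1 lost it on removal of wild-type libraries 1 and 3 and of homozygous libraries 2 and 3 (up to 0.05601).

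Other large falls were in genes outside the cell type lists used here, and which cells express them was not tested. Scn3a, a voltage-gated sodium channel, fell to near 0. Scn3a stood at 8.09, 8.78, 5.35 and 7.43 FPKM in wild-type libraries 1 to 4 and at 0.248, 0.139, 0.149 and 1.23 FPKM in homozygous libraries 1 to 4. Homozygous library 4 stood above the other 3 (-2.59 ± 0.25, limma adjusted p = 0.000432). Gm13919, a gene model without an assigned function, fell from a range of 14.02 to 16.3 FPKM to one of 0.683 to 1.33 (-3.07 ± 0.31, adjusted p = 0.0006002). Ly6a, the stem cell antigen Sca-1, fell from a range of 114 to 131 FPKM to one of 16.9 to 35.5 (-2.21 ± 0.46, adjusted p = 0.0334). Scn3a, Gm13919 and Klk1b27 stayed below the threshold whichever of the 8 libraries was left out (adjusted p up to 0.0334). Ly6a lost the call on removal of any 1 library (adjusted p up to 0.0954).

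The processed pseudogene Gm20305 was listed at 0 in all 4 wild-type and in all 6 old libraries and stood at 2.78, 2.76, 4.82 and 2.08 FPKM in homozygous libraries 1 to 4 (limma adjusted p = 0.000432). In other young fractions it was detected in wild type too, with a mean of 0.642 FPKM in B and 0.485 in T cells. Gm20529 (listed at 0 in 3 wild-type libraries), Gm44649 and the histone gene Hist2h2bb also rose from low levels, to 1.63 to 4.37, 1.36 to 2.16 and 4.95 to 6.45 FPKM. Tnfsf13, the B cell growth factor APRIL, rose from a range of 13.5 to 20.1 FPKM to one of 23.03 to 30.9 (0.75 ± 0.17, adjusted p = 0.04701) and Capg, an actin-capping protein, from a range of 117 to 155 FPKM to one of 202 to 227 (0.66 ± 0.15). Sgce, a sarcoglycan, rose by 0.86, 2310022A10Rik by 0.59 and the small nucleolar RNA Snord13, whose short length makes FPKM unsure, by 0.77. Gm20305 stayed below the threshold whichever of the 8 libraries was left out (adjusted p up to 0.00361). It passed the filter of 1 FPKM in 3 libraries only through the homozygous libraries, and the values listed at 0 add no spread. Its p-values are therefore no separate support for the rise. Gm44649, Hist2h2bb, Capg, Sgce and 2310022A10Rik lost the call on removal of any 1 library (adjusted p up to 0.148). Gm20529 and Tnfsf13 kept it only on removal of homozygous library 1 (otherwise up to 0.144). Snord13 kept it only on removal of wild-type library 4 (otherwise up to 0.127).

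The genotype effect was set against that in B and T cells of the same young animals, in 1 fit of 24 libraries and 13895 genes with the animal as a block. The effect differed between non-BT and B cells for 400 genes (2.88%) and between non-BT and T cells for 170 (1.22%). Of the 198 falls, 197 were in this fit. Of these 98 differed from the effect in B cells, 70 from that in T cells and 56 from both. In wild-type animals 116 of the 197 falls were higher in non-BT cells than in both other fractions. So were 7 of the 31 rises and 21.2% of all genes in the fit. The falls were called in the same non-BT libraries, a choice that can by itself raise these counts and those of differing effects. Of the 31 rises 5 differed from B and 2 from T cells. The genotype effect itself was called for 2.77% of genes in B and 2.12% in T cells; 19 of the 197 falls were called in B and 40 in T cells, all of them falls there too. Leaving out 1 animal gave 201 to 460 genes for B and 59 to 153 for T cells, and a pseudocount of 0.1 gave 282 and 57.

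**Figure D4:**
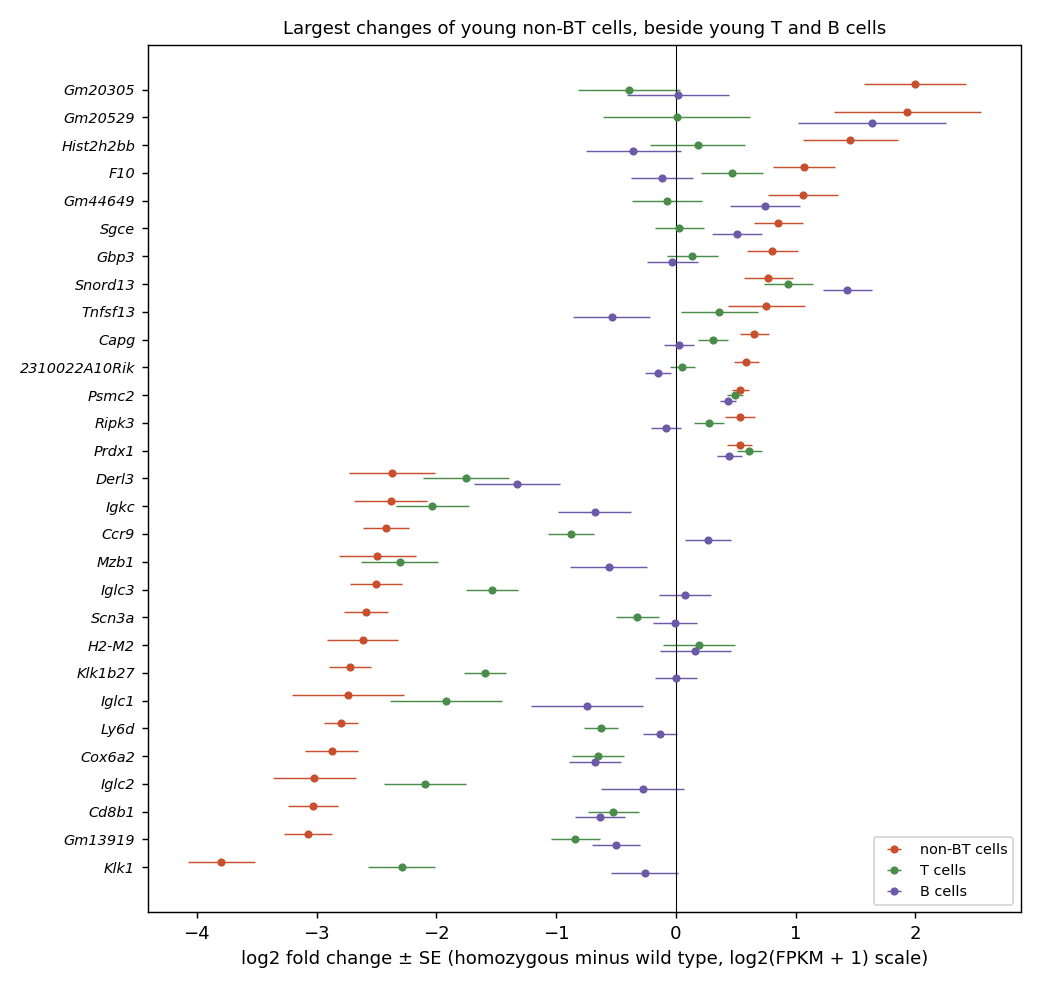
Log2 fold change with SE (horizontal axis) in young non-BT, T and B cells for the genes described among the largest rises and falls of non-BT cells. Ly6d and Cox6a2 fall far more in non-BT cells, and Psmc2 and Prdx1 rise in all 3 fractions.

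Several genes, picked by their fall in non-BT cells, fell more there than in the other fractions. The log2 fold change of Ly6d was -0.13 ± 0.14 (SE) in B and -0.62 ± 0.14 in T cells, and its fall in non-BT cells was larger than either (limma adjusted p of 4.1e-08 and 2.2e-06). Cox6a2, Cd8b1, H2-M2, Scn3a and Ccr7 also differed from both fractions. Klk1 fell in T cells too (-2.29 ± 0.28), where its wild-type mean was 8.04 FPKM, and the test called no difference from the fall in non-BT cells (adjusted p = 0.0602). Jchain fell in all 3 fractions (-1.41 ± 0.24 in B and -1.87 ± 0.24 in T cells), as did H2-Q4 (-0.79 ± 0.15 and -1.19 ± 0.15). Psmc2 rose in all 3 (0.44 ± 0.07 in B and 0.50 ± 0.07 in T cells). None of 36 proteasome subunit genes differed between non-BT cells and another fraction by limma (2 for B and 1 for T cells at an unadjusted p under 0.05).

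In old non-BT cells (3 against 3 libraries) 211 of the 229 genes had the same sign as in young ones, against 57.2% of all genes tested. The median of the 198 falls was -0.41 there and that of the 31 rises 0.24. No gene passed in old cells alone by limma (785 at an unadjusted p under 0.05), and none passed the test of a difference between the ages (723 at an unadjusted p under 0.05, smallest adjusted p 0.156). Siglech had a log2 fold change of -0.46 in old and -2.08 in young cells, Klk1 of -1.35 and -3.796, and Ccr7 of -0.999 and -1.47. The old libraries numbered 2 of both genotypes had Xist at 4.05 and 6.38 FPKM and Ddx3y at 0.113 and 0.0551, unlike all the others. Without them 628 genes (4.62%) passed in young cells, all 229 among them.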

How the data were processed

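The deposited files hold FPKM per gene, 1 file a library, which the authors calculated from mapped reads, per the file headers. RNA was taken with a column kit, full-length cDNA was made with SMART-Seq HT and libraries with Nextera XT, per the labels' protocols; neither kit marks the strand, so reads of overlapping genes cannot be told apart. HISAT2 2.1.0, Cufflinks 2.2.1, Cuffdiff and build GRCm38.p4 are named in the submitters' processing notes. All 47719 gene identifiers were read, and 47305 took a symbol from GENCODE M21.

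The tests ran in limma 3.58.1 under R 4.3.3 on log2 values after a pseudocount of 1 (lmFit, eBayes with trend, two-sided, Benjamini-Hochberg over all genes tested). The 14 non-BT libraries were fitted as 4 groups, with at least 1 FPKM in 3 libraries. The fit of 24 young libraries asked for 1 FPKM in 4 and held the animal as a block by duplicateCorrelation (correlation 0.0313). Single values were compared by exact permutation. Depth was estimated from the smallest FPKM steps of 5684 genes with 1 transcript; counts were not used, so no counting intervals were made. Because FPKM is relative to the whole library, a change in immunoglobulin reads moves all other values. Simulated data for the young comparison held 13587 genes, with independent normal noise and the changed genes drawn only above a minimum wild-type level. There 77 of 100 genes changed by 1 on the log2 scale and 97 of 100 changed by 2 were recovered, with 8 false calls. Recovery of lower genes was not tested.

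The genes named were Psmb8, the 15 largest rises and 15 largest falls that did not overlap (variable segments left out), the members of 46 lists that passed and the markers; members named beyond these were chosen after their values were seen. Some genes within these rules are not reported here, though counts and medians of lists include them. The comparison and the lists were chosen with earlier results of these data known. The 12 old B and T cell libraries were not used here.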

Additional observations from a re-analysis of the deposited data

Results flagged for a closer look

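Chance flags about 1 in 20 groups for a library that stands apart. How many groups were screened is not given here, so the number of flags cannot be set against that rate. In the wild-type group Gm20529 was at 0 in 3 libraries and at 0.251 FPKM in library 4, so the gap made up 1 of the range. The values at 0 fix that result whatever library 4 holds, and the chance rate does not apply to it. In the homozygous group Scn3a had library 4 at 1.23 FPKM above the other 3, a gap of 0.8998 of the range.

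The genotype effect differed from that in B cells for 400 genes and from that in T cells for 170 genes (limma interaction, adjusted p under 0.05). Of the largest changes reported here, which were picked in the same non-BT libraries, 8 genes differed from both. The difference of the log2 fold changes, non-BT minus B and non-BT minus T, was -2.57 and -2.23 for Gm13919, -2.39 and -2.51 for Cd8b1, -2.20 and -2.22 for Cox6a2 and -2.66 and -2.17 for Ly6d. It was -2.72 and -1.13 for Klk1b27, -2.78 and -2.81 for H2-M2, -2.58 and -2.27 for Scn3a and -2.69 and -1.55 for Ccr9.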

How the results depend on the processing

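The 229 calls (31 higher, 198 lower) became 104 (11 and 93) with no filter on low values, 106 (7 and 99) with FPKM scaled to the total without immunoglobulin genes, 681 (164 and 517) with young groups only, 756 (173 and 583) with array quality weights, 767 (211 and 556) with the library series as a term in the young groups, and 628 (148 and 480) without the old libraries numbered 2. Immunoglobulin genes, 26 of the 229, leave the test when the total is taken without them and could not be called there. The higher calls alone moved to 47 with quantile normalization, 67 with median scaling and 14 with no mean-variance trend. Leaving out 1 library gave 60 to 137 calls, 3 to 13 higher and 57 to 127 lower. The difference between the ages had 0 calls, 2 with no filter and 1 each with array quality weights, no mean-variance trend, a replicate block or without the old libraries numbered 2. Leaving out 1 animal gave 201 to 460 differences between non-BT and B cells and 59 to 153 between non-BT and T cells, and a pseudocount of 0.1 gave 57 for T cells. Without the animal block there were 364 and 139. The difference in immunoglobulin share was -5.60 to -3.83 percentage points without single libraries and that in genes at 1 FPKM or more was -307 to -268, each with an exact p of 0.0571. That is the smallest p that the two-sided permutation test can give with 1 library left out. The mitochondrial share differed by -0.0582 to 0.0610 points. No label says that the numbers in the titles pair the samples across genotypes. Same-numbered libraries had correlations of 0.130, 0.124, -0.0269 and 0.145 of their deviations, all but -0.0269 above every pair of different numbers (0.0811 at most). Of 8 libraries 6 correlated best with their own number, a hint of pairing from the data and not the design. With the number as a replicate block 178 genes passed, 20 of them higher, 33 of the 80 named calls were lost, and the age difference had 1 call. Of the 80 named calls none changed sign under the alternatives, but 44 missed the threshold with no filter on low values, 36 with the total without immunoglobulin genes, 22 with no mean-variance trend and 10 each with quantile normalization and median scaling. The 36 leave out the named immunoglobulin genes, which were not tested under that setting. Genes that were not called were followed under the 3 scalings only: Psme2, Prdm1, Isg15, Xbp1, Mx1, Cxcl10, Ly6c2 and Zeb2 changed sign under at least 1, as did the medians of 13 of the 46 lists. Where a call was lost the cause was not tested. Depth is an estimate, and low FPKM of short genes rests on few fragments.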

Other observations

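The number of genes at 1 FPKM or more was 12531 to 12648 in wild-type and 12265 to 12338 in homozygous young non-BT libraries (exact permutation p = 0.0286, the smallest that 4 against 4 can give). The mitochondrially encoded share of summed FPKM was 1.05 to 1.26% and 0.986 to 1.34% (exact p = 0.886). Of 79 ribosomal protein genes none passed by limma (1 at an unadjusted p under 0.05), with a median log2 fold change of 0.09. Chromosome 17, which carries Psmb8, had 11 of 699 tested genes called (1.57%), against 1.69% over all genes. This share covers the whole chromosome, and whether calls lie close to Psmb8 was not tested. Of 29 H2 (MHC) genes tested 6 fell and none rose, and 26 had a negative sign. Over all genes tested 1.46% fell and 52.5% had a negative sign. Chromosome 6, which carries the kappa light chain genes, had 26 of 848 (3.07%). Prg2 and Epx, granule genes of eosinophils, were higher on average in homozygous libraries (66.2 to 190.2 against 25.6 to 86.9 FPKM and 4.82 to 22.6 against 0.974 to 6.70 FPKM), and both overlapped and missed the threshold (adjusted p of 0.242 and 0.354).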
